A study of Homo sapiens with 9 samples.

Results

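The genes described here were 8 secreted WNT antagonists (DKK1, DKK2, DKK3, SFRP1, SFRP2, SFRP4, SFRP5 and WIF1), the ligand WNT5A, and AXIN2, which is both a regulator and a target of WNT signaling. They were chosen by their symbols, and their Ensembl identifiers were found for 10 of 10 among the 60617 genes counted in each RNA-seq library. The cells were PC-3, an established line grown from a bone metastasis of a prostate cancer, and each of the 3 groups had 3 libraries, sequenced after 5 days of treatment. Controls received the vehicle, an acidic ethanol solution in buffer. Whether treated cells also received it is not stated in the sources used here, so a difference in vehicle cannot be told apart from the treatments. Decitabine-treated cells received 1 µM of decitabine, a cytidine analog that is built into DNA and traps DNA methyltransferases. Decitabine plus SAM, the combination treatment, was 1 µM of decitabine given together with 200 µM of S-adenosylmethionine (SAM), the methyl donor of those enzymes. The doses and the vehicle are those of the study's methods. All 9 libraries came from 1 cell line, and no source used here says whether the libraries of a group came from separate cultures, so the p-values below measure only the spread between these libraries, which may be technical. The effect of SAM by itself was not analysed here.

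In canonical WNT signaling, a WNT ligand binds a Frizzled receptor together with LRP5 or LRP6, the complex that degrades beta-catenin is shut off, and beta-catenin then drives transcription with TCF/LEF factors. SFRP proteins and WIF1 bind WNT ligands outside the cell, whereas DKK1 and DKK2 bind LRP5 and LRP6. Genes of these antagonists are known to be silenced by promoter methylation in many carcinomas, among them prostate cancer. AXIN2, a scaffold of the degrading complex, is transcribed in response to beta-catenin and is used as a readout of the pathway, and WNT5A mostly signals without beta-catenin.

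To show what DNA lies before the starts of these genes, promoter sequences were taken from RefSeq (assembly GRCh38.p14). Sequences were used for 6 of the 10 genes (DKK1, SFRP2, SFRP4, SFRP5, WIF1 and WNT5A), with 7 starts. The other genes were left without a sequence here, which does not show that RefSeq lacks their starts. Windows are the 250 bases before the start, written 5′ to 3′ on the strand of the gene, with each CpG site, the dinucleotide that carries DNA methylation, in capitals. WIF1 (chr12:65121306-65121555, minus strand, 27 CpG sites) and SFRP4 (chr7:37916818-37917067, minus strand, 17 sites) are shown because both were at or near 0 in the controls and higher in every treated library. SFRP5 (chr10:97772000-97772249, minus strand, 21 sites) and SFRP2 (chr4:153789084-153789333, minus strand, 11 sites) are shown beside them because they stayed at 3 counts or fewer in every library. DKK1 (chr10:52314031-52314280, plus strand, 18 sites) is shown because it was the most highly expressed of the 10 genes in every group.
WIF1: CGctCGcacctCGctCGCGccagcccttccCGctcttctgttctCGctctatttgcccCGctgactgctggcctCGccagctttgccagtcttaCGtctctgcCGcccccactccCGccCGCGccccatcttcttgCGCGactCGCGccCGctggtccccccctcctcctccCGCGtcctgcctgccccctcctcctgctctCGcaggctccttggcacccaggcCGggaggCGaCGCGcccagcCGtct
SFRP4: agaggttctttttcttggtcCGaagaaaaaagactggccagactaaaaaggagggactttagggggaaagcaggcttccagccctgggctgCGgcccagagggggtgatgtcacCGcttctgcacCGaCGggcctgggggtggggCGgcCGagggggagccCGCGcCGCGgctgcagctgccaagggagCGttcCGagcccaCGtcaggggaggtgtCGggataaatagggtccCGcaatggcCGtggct
SFRP5: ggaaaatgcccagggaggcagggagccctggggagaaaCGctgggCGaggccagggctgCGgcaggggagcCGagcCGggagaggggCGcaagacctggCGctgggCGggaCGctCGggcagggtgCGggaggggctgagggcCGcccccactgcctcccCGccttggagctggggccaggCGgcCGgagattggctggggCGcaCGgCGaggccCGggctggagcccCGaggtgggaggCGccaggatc
SFRP2: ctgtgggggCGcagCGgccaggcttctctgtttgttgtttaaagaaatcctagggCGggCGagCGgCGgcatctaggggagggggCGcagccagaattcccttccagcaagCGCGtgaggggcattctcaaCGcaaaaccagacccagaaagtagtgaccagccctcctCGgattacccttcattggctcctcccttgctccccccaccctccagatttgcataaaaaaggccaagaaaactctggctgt
DKK1: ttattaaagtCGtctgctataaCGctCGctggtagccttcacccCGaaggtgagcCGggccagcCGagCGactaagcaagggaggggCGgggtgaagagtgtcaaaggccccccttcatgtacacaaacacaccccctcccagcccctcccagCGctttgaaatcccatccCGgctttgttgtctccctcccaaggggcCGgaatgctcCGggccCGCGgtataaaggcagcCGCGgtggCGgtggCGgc
The 2 WNT5A windows (chr3:55481399-55481648 and chr3:55487307-55487556, minus strand) held 18 and 14 CpG sites. Over the 35114 RefSeq promoters used here, the median was 11 sites in 250 bases, with quartiles of 3 and 23. WIF1 thus had more CpG sites than 82.3% of promoters, SFRP5 more than 69.8%, DKK1 more than 63.2%, SFRP4 more than 61.0% and SFRP2 more than 49.7%. SFRP5 had more CpG sites than SFRP4 and SFRP2 had fewer, and whether CpG number played a part in the changes was not tested. The motif ATCAAAG, which TCF/LEF factors are known to bind, was searched on both strands and was in none of the 7 windows, while 2.26% of all promoters held it. For a motif this rare, absence from 7 windows says little, and AXIN2 had no window. Methylation at these promoters was not analysed here.

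Libraries were similar in depth, with 21934307 to 22489684 counts each. Levels are given as TMM-scaled CPM (counts relative to the scaled library total). As a check of the cell type, 4 of 4 epithelial markers (KRT8, KRT18, EPCAM and CDH1) had counts in every library, with a summed level of 538 to 592 CPM in the controls, 636 to 685 under decitabine and 528 to 608 under decitabine plus SAM. Within that sum KRT18 fell (-0.25 and -0.43, adjusted p = 0.014 and 0.00031, the former at -0.01 and not called with library size as the only scaling), while KRT8 rose by 1.14 and 0.8 (adjusted p = 1.6e-08 and 5.1e-07) and CDH1 by 2.94 and 3.17 (adjusted p = 3e-10 and 1.4e-10). Of the prostate luminal markers, KLK3 was at 0 throughout, and KLK2 was at 0 in the controls and had 11 to 24 counts in treated libraries. PC-3 is known to lack PSA, the product of KLK3. Of the leukocyte and endothelial markers, CD3E was at 0 in the controls. PECAM1 was at 10.1 ± 0.272 CPM in the controls, 35.1 ± 5.65 under decitabine and 39.7 ± 3.76 under decitabine plus SAM (SD, n = 3), and PTPRC had 1 to 2 counts per control and 13 to 30 in treated libraries. KRT8, CDH1, KLK2, PECAM1 and PTPRC were higher in treated cells, as were most of the antagonists, and their part in the results below was not tested. In such bulk libraries, more cells that express a gene and more RNA per cell cannot be told apart.

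Of the 10 genes, 7 had enough counts to be tested. Among them, DKK1, DKK3, SFRP1, SFRP4, WIF1 and AXIN2 rose and WNT5A fell, both under decitabine and under decitabine plus SAM (edgeR's quasi-likelihood test, Benjamini-Hochberg adjusted p under 0.05). That is 6 of 7 higher and 1 of 7 lower in each comparison, beside 36.3% of all 18532 genes tested that were higher and 32.5% that were lower under decitabine (68.8% in all), and 35.9% and 31.3% (67.2% in all) under decitabine plus SAM. With library size as the only scaling in place of TMM, these shares became 47.7% and 20.2% under decitabine and 46.9% and 20.8% under decitabine plus SAM, since the median log2 change over all genes tested moved from 0.035 to 0.281 and from 0.048 to 0.268. DKK3, SFRP4 and WIF1 passed the filter on low counts only through the treated libraries, so they had to be higher there. DKK1, SFRP1, WNT5A and AXIN2 passed it in the controls alone. For all 7, the 3 controls and the 3 libraries of either treatment did not overlap, beside 38.1% of all genes tested that lay wholly higher and 34.8% wholly lower under decitabine, and 38.0% and 33.6% under decitabine plus SAM.

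**Figure D1:**
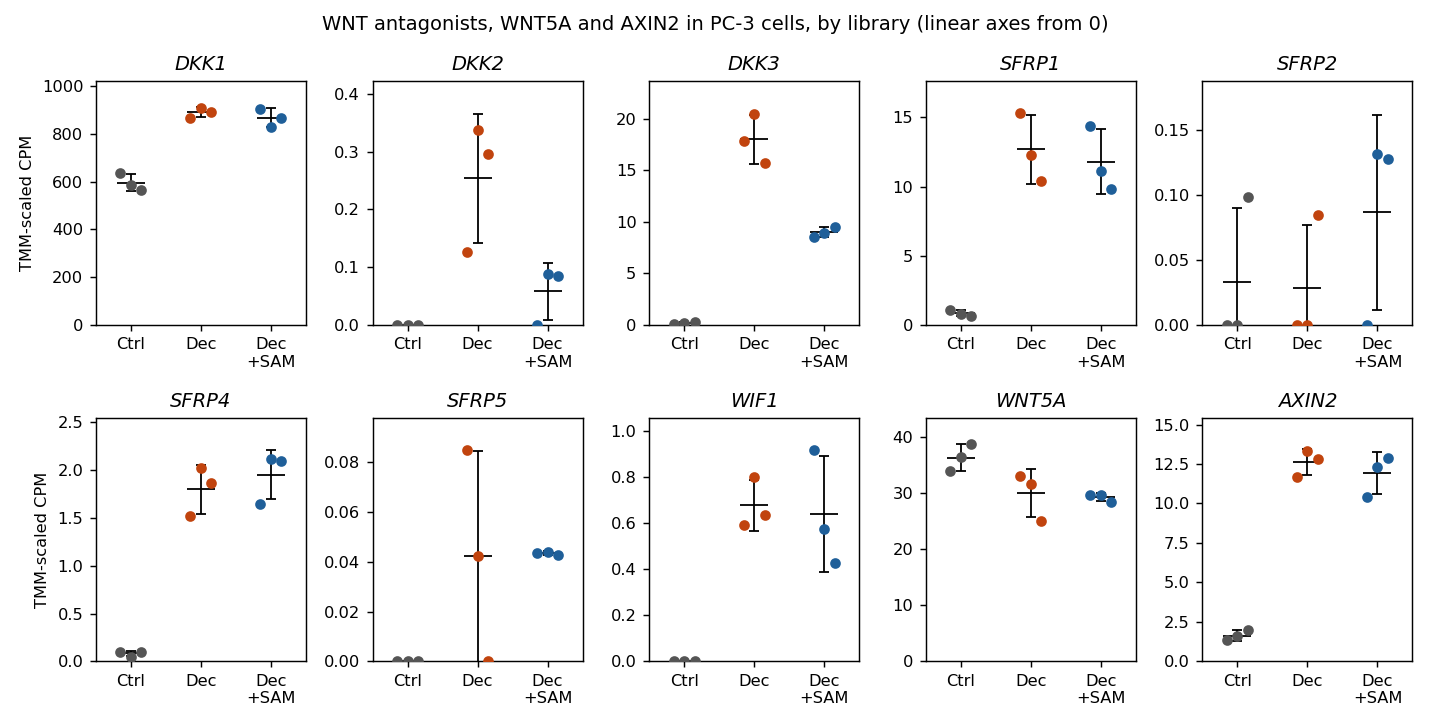
Levels of the 10 genes in TMM-scaled CPM (linear axes from 0, a scale of its own for each gene). Each point is 1 library of the controls (Ctrl), decitabine (Dec) or decitabine plus SAM (Dec +SAM), and bars are the mean ± SD of 3 libraries, ending at the axis where they would go below 0. DKK3 lay at 15.7 to 20.5 under decitabine and at 8.53 to 9.54 under decitabine plus SAM, and WNT5A alone among the 7 genes tested was highest in the controls.

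Among the Dickkopf genes, DKK1 was expressed in all libraries and DKK3 went from at most 6 counts to 196 or more. DKK1 (ENSG00000107984, chr10:52314281-52318042, plus strand), an antagonist that removes LRP5 and LRP6 from WNT binding, had 634, 587 and 564 CPM in the controls, 868, 910 and 891 under decitabine and 906, 829 and 868 under decitabine plus SAM. Every treated library was above every control, and the treated groups overlapped each other. DKK1 rose by 0.58 on the log2 scale under decitabine (SE 0.07, 95% interval 0.43 to 0.73, adjusted p = 6.1e-06) and by 0.54 under decitabine plus SAM (SE 0.07, 0.39 to 0.7, adjusted p = 1.2e-05).
DKK3 (ENSG00000050165, chr11:11956207-12009769, minus strand) is a divergent Dickkopf whose place in WNT signaling is less settled and which is known as a gene lost in several tumors. It had 2, 4 and 6 counts in the controls, 421, 486 and 370 under decitabine and 196, 202 and 224 under decitabine plus SAM. In CPM these are 0.0993, 0.2 and 0.296 in the controls, 17.8, 20.5 and 15.7 under decitabine and 8.53, 8.89 and 9.54 under decitabine plus SAM. The 3 groups did not overlap, and decitabine plus SAM lay between the controls and decitabine. Against the controls, DKK3 rose 88.1-fold under decitabine (log2 fold change 6.46, SE 0.23, adjusted p = 3.6e-11) and by 5.46 on the log2 scale under decitabine plus SAM (SE 0.25, adjusted p = 3.3e-10).
DKK2 (ENSG00000155011, chr4:106921802-107283806, minus strand), which binds LRP5 and LRP6 as DKK1 does, did not pass the filter. It had no counts in the controls, 3, 8 and 7 under decitabine and 0, 2 and 2 under decitabine plus SAM. Ratios of DKK2 took 3 counts over the control group as the floor and the treated counts as observed, without their error. On that basis DKK2 was 5.11-fold higher under decitabine and 1.16-fold higher under decitabine plus SAM, the latter from 4 counts in all. Since the floor stands in for an observed 0, these ratios have no upper limit and do not give the size of the change. Without the filter it was called under decitabine (adjusted p = 0.00043) and not under decitabine plus SAM (adjusted p = 0.11) or between the treatments (adjusted p = 0.14).

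Of the secreted Frizzled-related proteins, which carry a Frizzled-like domain that binds WNT ligands, SFRP1 and SFRP4 rose and SFRP2 and SFRP5 stayed near 0. SFRP1 (ENSG00000104332, chr8:41261962-41309473, minus strand) had 21, 16 and 13 counts in the controls, 363, 292 and 245 under decitabine and 330, 252 and 231 under decitabine plus SAM. Its levels were 1.04, 0.8 and 0.642 CPM in the controls, 15.3, 12.3 and 10.4 under decitabine and 14.4, 11.1 and 9.84 under decitabine plus SAM, so the treated groups overlapped each other and lay far above the controls. SFRP1 rose 15.2-fold under decitabine (log2 fold change 3.93, SE 0.23, adjusted p = 4.8e-09) and 14.1-fold under decitabine plus SAM (3.82, SE 0.24, adjusted p = 6.7e-09).
SFRP4 (ENSG00000106483, chr7:37905932-38025695, minus strand) had 2, 1 and 2 counts in the controls, 36, 48 and 44 under decitabine and 38, 48 and 49 under decitabine plus SAM. At its mean of 1.80 ± 0.257 CPM under decitabine and 1.95 ± 0.257 under decitabine plus SAM (SD, n = 3), it remained a gene of low expression. The increases were 20.5-fold under decitabine (log2 fold change 4.36, SE 0.38, 95% interval 3.54 to 5.17, adjusted p = 1.8e-07) and 22.1-fold under decitabine plus SAM (4.47, SE 0.38, 3.66 to 5.27, adjusted p = 1.4e-07).
SFRP2 (ENSG00000145423, chr4:153780591-153789083, minus strand) had 0, 0 and 2 counts in the controls, 0, 0 and 2 under decitabine and 0, 3 and 3 under decitabine plus SAM. The ratio of decitabine plus SAM to the controls was 2.62, with a 95% counting interval of 0.468 to 26.5, which holds both a decrease and a large increase. SFRP5 (ENSG00000120057, chr10:97766751-97771999, minus strand) had no counts in the controls, 2, 1 and 0 under decitabine and 1, 1 and 1 under decitabine plus SAM. A difference in SFRP5 was not detectable at this depth, since no group had more than 3 counts in all.

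WIF1 (ENSG00000156076, chr12:65050626-65121305, minus strand), a secreted protein that binds WNT ligands through its WIF domain, had no counts in the controls. It had 14, 19 and 15 counts under decitabine and 21, 13 and 10 under decitabine plus SAM, or 0.676 ± 0.111 and 0.637 ± 0.251 CPM (SD, n = 3). All 6 treated libraries thus held WIF1 reads and none of the 3 controls did. Against the floor of 3 counts over the control group, with the treated counts as observed, WIF1 was 13.6-fold higher under decitabine (48 against 0 counts, adjusted p = 3e-05). Under decitabine plus SAM it was 12.8-fold higher on the same basis (44 against 0 counts, adjusted p = 4e-05). These ratios have no upper limit either.

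WNT5A was the only ligand in the set and the only one of the 7 genes tested that fell. WNT5A (ENSG00000114251, chr3:55465715-55490539, minus strand) had 33.9, 36.4 and 38.8 CPM in the controls, 33.1, 31.7 and 25.1 under decitabine and 29.6, 29.7 and 28.5 under decitabine plus SAM. The lowest control and the highest decitabine library were close, at 33.9 and 33.1 CPM. Its change was -0.28 on the log2 scale under decitabine (SE 0.1, 95% interval -0.49 to -0.06, adjusted p = 0.023) and -0.31 under decitabine plus SAM (SE 0.1, -0.53 to -0.1, adjusted p = 0.013). With library size as the only scaling, WNT5A was not called with either treatment (-0.03, adjusted p = 0.77, and -0.09, adjusted p = 0.41). Without decitabine replicate 3 the change under decitabine was -0.17 (adjusted p = 0.1), and without control replicate 3 it was -0.24 (adjusted p = 0.077).

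AXIN2, which is transcribed when beta-catenin signaling is active and also helps to degrade beta-catenin, rose, as did the antagonists that were tested. AXIN2 (ENSG00000168646, chr17:65528563-65561648, minus strand) had 27, 32 and 40 counts in the controls, 277, 316 and 302 under decitabine and 238, 280 and 303 under decitabine plus SAM. The levels were 1.34, 1.6 and 1.97 CPM in the controls, 11.7, 13.3 and 12.8 under decitabine and 10.4, 12.3 and 12.9 under decitabine plus SAM, and only the treated groups overlapped. The increase was 7.67-fold under decitabine (log2 fold change 2.94, SE 0.16, adjusted p = 2e-09) and 7.22-fold under decitabine plus SAM (2.85, SE 0.16, adjusted p = 3e-09). Increases of more than 2 on the log2 scale, such as those of DKK3, SFRP1, SFRP4 and AXIN2, were found in 14.1% of all genes tested under decitabine and in 13.2% under decitabine plus SAM.

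**Figure D2:**
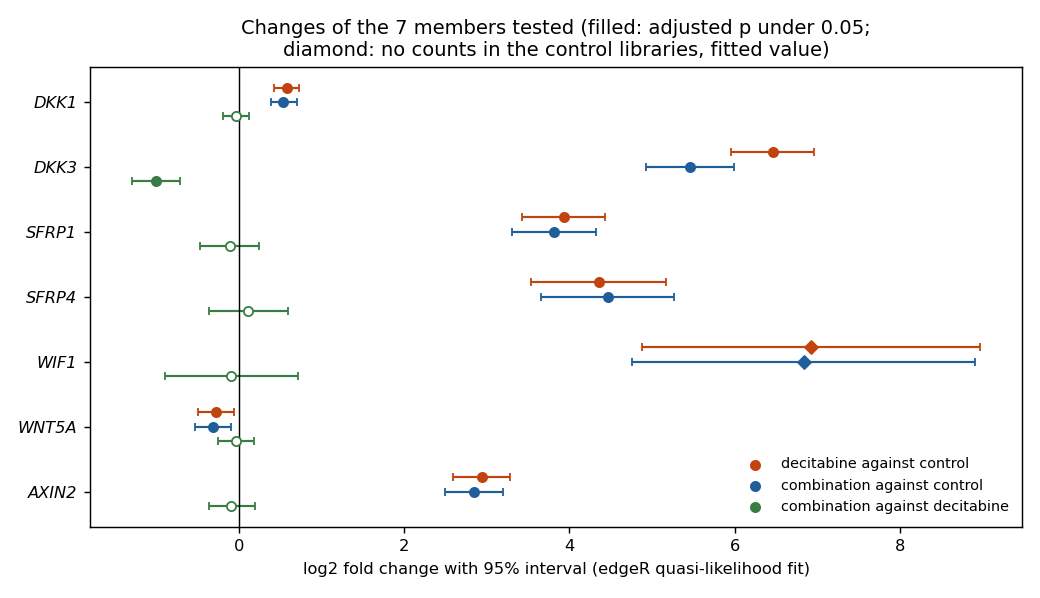
Fitted log2 fold changes of the 7 genes tested, with 95% intervals from edgeR's quasi-likelihood fit, for decitabine against control, decitabine plus SAM against control and decitabine plus SAM against decitabine. Filled symbols passed an adjusted p of 0.05, and diamonds mark WIF1 against the controls, where a fitted value depends on the prior count because the controls had no counts. DKK3 was the one gene called between the treatments, at -1.0.

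The comparison between decitabine plus SAM and decitabine alone asks what differed when SAM was given with decitabine. A difference in vehicle between these groups cannot be told apart from SAM. DKK3 alone among the 7 genes tested was called. It was lower under decitabine plus SAM, at 8.99 ± 0.511 CPM against 18.0 ± 2.42 under decitabine (SD, n = 3), a log2 fold change of -1.0 (SE 0.13, 95% interval -1.29 to -0.71, adjusted p = 0.00068). The lowest decitabine library had 15.7 CPM and the highest library of decitabine plus SAM 9.54. Over all genes tested, 8.02% were lower and 7.67% higher in this comparison, and 16.8% lay wholly lower without overlap, so 1 of 7 is not apart from the background. The fold against the controls and the fold between the treatments share libraries and are not independent of each other.
The other 6 genes overlapped between the treatments and were not called. The 95% intervals of the log2 difference were -0.19 to 0.12 for DKK1, -0.25 to 0.18 for WNT5A and -0.36 to 0.19 for AXIN2, so changes of 0.5 in either direction lay outside them. Wider intervals were found for SFRP1 (-0.47 to 0.25), SFRP4 (-0.36 to 0.59) and WIF1 (-0.89 to 0.72), the last with 10 to 21 counts per treated library. DKK2 had 18 counts under decitabine and 4 under decitabine plus SAM in all, and a test of it between the treatments did not pass.

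Per length of transcript, DKK1 stood far above every other gene of the set, at 330 ± 19.7 CPM per kb in the controls, 493 ± 11.5 under decitabine and 481 ± 21.4 under decitabine plus SAM (SD, n = 3). Of the summed level of the 8 antagonists per kb, DKK1 made up 99.9% in each control, 97.7% to 98.1% under decitabine and 98.5% to 98.6% under decitabine plus SAM. The other 7 antagonists summed to 0.276 to 0.345 CPM per kb in the control libraries, 9.62 to 12.1 under decitabine and 7.04 to 7.66 under decitabine plus SAM. DKK3 set the treated groups apart in this sum, since the 6 antagonists without DKK1 and DKK3 summed to 3.42 to 4.35 under decitabine and 3.26 to 4.28 under decitabine plus SAM, which overlap, against 0.197 to 0.268 in the controls.
In the controls, WNT5A came second with 6.22 ± 0.414 CPM per kb, followed by AXIN2 with 0.385 ± 0.0748, SFRP1 with 0.186 ± 0.0452, DKK3 with 0.0786 ± 0.039 and SFRP4 with 0.0288 ± 0.00986, which SFRP2 overlapped. Under decitabine, DKK3 was second at 7.12 ± 0.959 and WNT5A next at 5.13 ± 0.737, without overlap between their libraries. Under decitabine plus SAM the order of this pair was again WNT5A first, with 5.01 ± 0.112 against 3.56 ± 0.202 for DKK3. AXIN2 and SFRP1 overlapped in both treated groups, at 2.96 ± 0.193 and 2.84 ± 0.561 under decitabine and 2.78 ± 0.313 and 2.64 ± 0.524 under decitabine plus SAM. SFRP4 and WIF1 followed at 0.629 ± 0.0895 and 0.342 ± 0.0559 under decitabine, and DKK2, SFRP5 and SFRP2 were lowest.

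**Figure D3:**
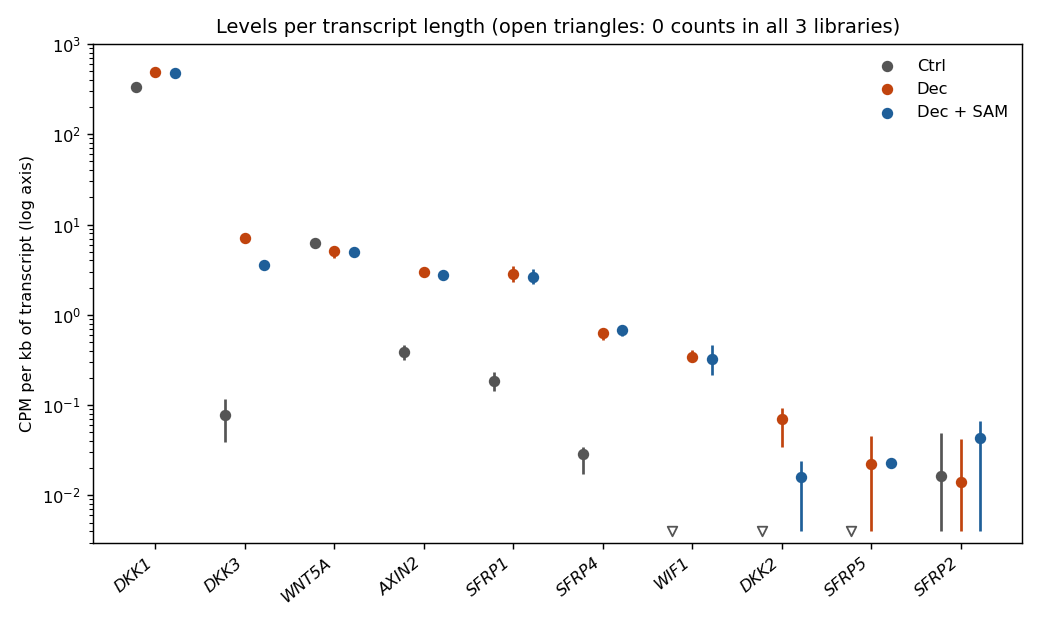
Mean level of each gene in CPM per kb of its canonical transcript (log axis), in the order of the decitabine group. Vertical lines run from the lowest to the highest of 3 libraries and end at the bottom of the plot where a library had no counts, and open triangles mark groups without counts. DKK1 lay at 330 to 493 in all groups, and DKK3 passed from 0.0786 in the controls to 7.12 under decitabine and 3.56 under decitabine plus SAM.

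To place these genes within the pathway, 107 other WNT genes were grouped by role in 8 lists, of which 83 genes were tested. Under decitabine, 36.1% of them were higher and 34.9% lower (30 and 29 genes, median log2 fold change 0.05), beside 36.3% and 32.5% of all genes tested (median 0.035). Under decitabine plus SAM, 41.0% were higher and 24.1% lower (34 and 20 genes, median 0.07), beside 35.9% and 31.3% of all genes (median 0.048). Between the treatments, 6.02% were higher and 1.2% lower (5 and 1 genes, median 0.13), beside 7.67% and 8.02% of all genes (median 0.002). With library size as the only scaling the split was 41 higher and 20 lower under decitabine and 44 higher and 15 lower under decitabine plus SAM. Of all genes tested, 47.7% were then higher and 20.2% lower under decitabine, and 46.9% and 20.8% under decitabine plus SAM.
Of the 83 genes, 13 passed the filter only through treated libraries so that the filter itself favours higher values there (WNT2, WNT4, WNT5B, WNT10A, WNT11, FRZB, DRAXIN, APCDD1, FZD9, RSPO2, LGR6, NKD2 and CCN5). Among the 70 that passed it in the controls alone, 19 were higher and 29 lower under decitabine (median -0.2), and 22 higher and 20 lower under decitabine plus SAM (median -0.03). The split of all genes that passed in the controls alone was not computed. These counts thus have no background beside them and show no tilt of WNT genes. The same holds for the lists below where genes that passed only through treated libraries are left out.
The 6 calls between the treatments were those of WNT11, FZD3, FZD8, TCF7, TLE3 and DVL1, and none of these held in all 17 alternatives. Without decitabine replicate 2 all 6 were lost, without replicate 2 of decitabine plus SAM all but FZD8, without its replicate 1 WNT11, FZD3, TCF7 and TLE3, and without decitabine replicate 1 WNT11, TCF7 and DVL1. With only the 6 libraries compared, TCF7, TLE3 and DVL1 were lost. In all, TCF7 was not called in 8 alternatives, DVL1 in 6, TLE3 in 5, WNT11 in 4, FZD3 in 3 and FZD8 in 1.

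Ligands and antagonists outside the set included 8 genes that passed the filter only through treated libraries. Of all genes tested, 36.3% were higher and 32.5% lower under decitabine, and 35.9% and 31.3% under decitabine plus SAM. Of the 11 WNT ligands tested of 18, 7 were higher and 1 lower under decitabine (63.6% and 9.09%, median 1.0). Under decitabine plus SAM 9 were higher and 0 lower (81.8% and 0.0%, median 1.31). Leaving out the 5 that passed only through treated libraries, 2 were higher and 1 lower of 6 (median 0.21) and 4 were higher and 0 lower (median 0.6). WNT11, one of those 5 and a ligand known for signaling without beta-catenin, rose by 5.21 (SE 0.3, adjusted p = 3.1e-09) and 5.82 (SE 0.29, adjusted p = 7.3e-10) on the log2 scale, from 0.166 ± 0.126 CPM to 6.33 ± 0.279 and 9.67 ± 1.27, and was higher under decitabine plus SAM than under decitabine (0.61, SE 0.17, adjusted p = 0.025). WNT7B rose by 0.76 under decitabine and by 0.96 under decitabine plus SAM (adjusted p = 1.6e-05 and 1.8e-06). WNT10B was called only under decitabine (-1.04 and -0.48, adjusted p = 0.0053 and 0.14). WNT3 was called only under decitabine plus SAM (0.29 and 0.53, adjusted p = 0.055 and 0.0017).
Of 7 other extracellular antagonists tested of 15, 5 were higher and 1 lower under decitabine (71.4% and 14.3%, median 1.24). Under decitabine plus SAM 6 were higher and 1 lower (85.7% and 14.3%, median 1.69). Of the 7, FRZB, DRAXIN and APCDD1 passed only through treated libraries. Among the other 4, 3 were higher and 1 lower with both treatments (medians 1.01 and 1.22). KREMEN2 and KREMEN1, the receptors through which DKK1 removes LRP6, rose by 1.88 and 0.79 under decitabine (adjusted p = 1.5e-06 and 7.5e-05) and by 2.08 and 0.85 under decitabine plus SAM (adjusted p = 5.4e-07 and 3.6e-05). IGFBP4, an IGF-binding protein that also antagonizes WNT, fell from 504 ± 39.4 CPM to 159 ± 13.4 under decitabine and 166 ± 5.89 under decitabine plus SAM (log2 fold changes -1.66 and -1.6, adjusted p = 7.5e-10 and 1.1e-09). The proteins of WNT secretion, PORCN, which acylates WNTs, and WLS, which carries them to the surface, were both higher, by 0.77 and 0.64 under decitabine (adjusted p = 5.5e-05 and 3.7e-06) and by 0.54 and 0.8 under decitabine plus SAM (adjusted p = 0.0012 and 4.5e-07).

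Receptors moved in both directions. Of 14 tested of 16, 3 were higher and 7 lower under decitabine (median -0.33, or -0.08 with library size as the only scaling), and 3 higher and 4 lower under decitabine plus SAM (median -0.15, or 0.07). FZD5 and FZD7 rose by 1.33 and 1.08 under decitabine and by 1.06 and 1.25 under decitabine plus SAM (adjusted p between 1.1e-07 and 2.4e-06), and FZD2 fell (-0.98 and -1.11, adjusted p = 1.2e-05 and 4.2e-06). FZD9, named after its values were seen, had no counts in the controls and 123 and 141 counts in all in the treated groups. Against the floor of 3 counts, with the treated counts as observed, FZD9 was 34.9-fold and 41.0-fold higher, ratios without an upper limit. The co-receptor LRP5, to which DKK1 binds, had 133 ± 8.54 CPM in the controls, 96.0 ± 10.6 under decitabine and 87.3 ± 5.83 under decitabine plus SAM (-0.47, adjusted p = 0.00025, and -0.61, adjusted p = 2.7e-05). LRP6, which DKK1 also binds, was named after its values were seen. It was lower under decitabine (-0.48, adjusted p = 0.0004) and not called under decitabine plus SAM (-0.2, adjusted p = 0.069). With library size as the only scaling these changes were -0.23 and 0.02. FZD3 was lower under decitabine (-0.42, adjusted p = 0.004), a call lost with library size as the only scaling (-0.18, adjusted p = 0.17), and was higher under decitabine plus SAM than under decitabine (0.41, adjusted p = 0.024), as was FZD8 (0.4, adjusted p = 0.0082). FZD8 too was lower under decitabine than in the controls (-0.55, adjusted p = 5.2e-05). Against the controls, neither FZD3 nor FZD8 was called under decitabine plus SAM (-0.01 and -0.15, adjusted p = 0.94 and 0.13).
Among 6 R-spondins, LGR receptors and receptor ubiquitin ligases tested of 9, 3 were higher and 2 lower under decitabine (median 0.73) and 3 higher and 1 lower under decitabine plus SAM (median 0.77). These medians became 0.34 and 0.24 with a filter on a mean count of 10 and 1.43 and 0.19 without a filter, and RSPO2 and LGR6 passed only through treated libraries. Among the other 4, 1 was higher and 2 lower (median 0.04) and 1 was higher and 1 lower (median 0.09). LGR6, an R-spondin receptor, rose by 5.42 and 5.25 (adjusted p = 1.1e-08 and 1.7e-08), from 0.0826 ± 0.0567 CPM to 3.79 ± 0.69 and 3.37 ± 0.228. RNF43, a ligase that removes Frizzled receptors and is itself a WNT target, rose by 1.14 and 1.32 (adjusted p = 0.0017 and 0.0006). LGR4 was lower by edgeR's test with both treatments (-0.36 and -0.28, adjusted p = 0.0026 and 0.013) and ZNRF3 under decitabine (-0.24, adjusted p = 0.041), but with library size as the only scaling neither was called, at -0.11 and -0.06 for LGR4 and 0.01 for ZNRF3.

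**Figure D4:**
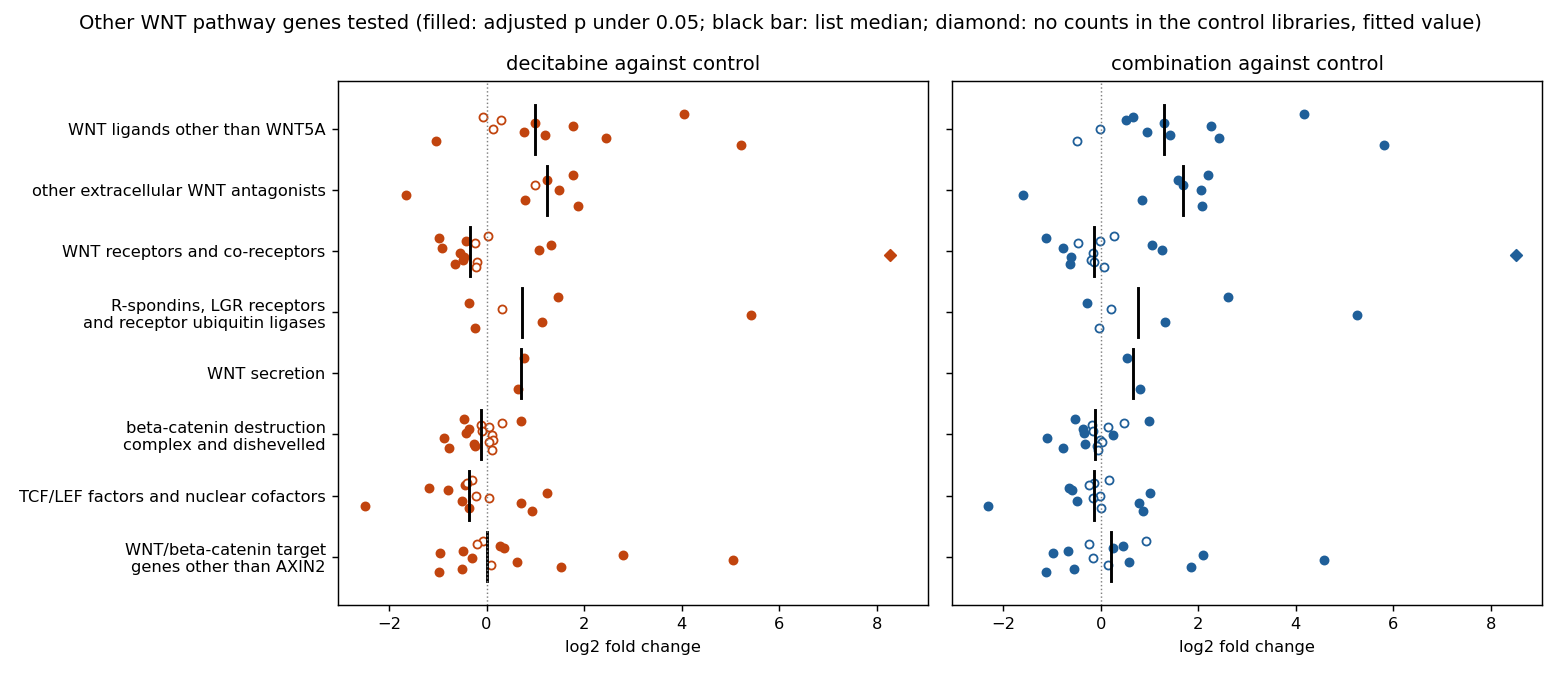
Log2 fold changes of the 83 tested WNT pathway genes outside the set, by list, under decitabine and under decitabine plus SAM against control. Each point is 1 gene, filled where the adjusted p was under 0.05, the black bar is the list's median, and the diamond is FZD9, which had no counts in the controls, at a fitted value. The medians of the ligands (1.0 and 1.31) and of the other antagonists (1.24 and 1.69) include 5 and 3 genes that passed the filter only through treated libraries, and the receptor medians of -0.33 and -0.15 became -0.08 and 0.07 with library size as the only scaling.

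For genes that act inside the cell, the balance of higher and lower calls depended on the scaling. So did that of all genes tested, from 36.3% and 32.5% to 47.7% and 20.2% under decitabine with library size as the only scaling. Under decitabine plus SAM it went from 35.9% and 31.3% to 46.9% and 20.8%. Of 16 genes of the destruction complex and dishevelled, all tested, 1 was higher and 7 lower under decitabine (6.25% and 43.8%, median -0.11), which became 7 higher and 4 lower (median 0.14) with library size as the only scaling. Under decitabine plus SAM, 2 were higher and 6 lower (12.5% and 37.5%, median -0.11), or 6 higher and 3 lower (median 0.11) with library size alone. APC, a scaffold of the complex, rose by 0.71 and 0.99 (adjusted p = 1.5e-05 and 6.1e-07). DVL1, which relays the signal from Frizzled, fell (-0.87 and -1.09, adjusted p = 4.4e-08 and 5.4e-09) and was lower under decitabine plus SAM than under decitabine (-0.22, adjusted p = 0.036). CSNK1E, a casein kinase, was higher under decitabine plus SAM (0.25, adjusted p = 0.0068). The ubiquitin ligase subunit FBXW11 was lower under decitabine (-0.23, adjusted p = 0.0057), and BTRC with both treatments (-0.25 and -0.31, adjusted p = 0.013 and 0.0037). With library size as the only scaling these were not called, at 0.02 for FBXW11 and -0.01 and -0.09 for BTRC.
Of 13 TCF/LEF factors and nuclear cofactors, 3 were higher and 6 lower under decitabine (23.1% and 46.2%, median -0.35) and 3 higher and 4 lower under decitabine plus SAM (23.1% and 30.8%, median -0.14). With library size as the only scaling these became 4 and 4 (median -0.1), and 5 and 3 (median 0.08). BCL9L, a coactivator of beta-catenin, rose by 1.24 and 1.01 (adjusted p = 3e-06 and 1.7e-05), and the corepressors TLE1 and TLE2 moved apart, TLE1 by 0.7 and 0.79 (adjusted p = 8.7e-07 and 2.6e-07) and TLE2 by -2.49 and -2.3 (adjusted p = 1.2e-07 and 2.3e-07). CTNNBIP1, an inhibitor of beta-catenin, fell by 0.5 under decitabine and by 0.49 under decitabine plus SAM (adjusted p = 0.00049 and 0.00057). TLE3 was lower under decitabine (-0.35, adjusted p = 0.0052), which was lost with library size as the only scaling (-0.1, adjusted p = 0.34), and higher under decitabine plus SAM than under decitabine (0.35, adjusted p = 0.027). TCF7 was also higher in that comparison (0.47, adjusted p = 0.041), a call lost in several alternatives, library size alone among them (adjusted p = 0.063).
AXIN2 can be set beside other genes known to respond to beta-catenin. Of 14 tested of 18, 6 were higher and 5 lower under decitabine (42.9% and 35.7%, median 0.0, or 0.25 with library size alone). Under decitabine plus SAM 6 were higher and 4 lower (42.9% and 28.6%, median 0.21, or 0.43). These shares were near those of all genes tested (36.3% and 32.5%, and 35.9% and 31.3%). NKD2 and CCN5 passed the filter only through treated libraries. CCN5, a secreted matricellular protein, rose by 5.05 and 4.58 (adjusted p = 6.4e-07 and 1.9e-06). CCND1, the cyclin of G1 phase, rose by 0.28 and 0.46 (adjusted p = 0.0022 and 4.4e-05), and CD44, an adhesion receptor, by 0.35 and 0.26 (adjusted p = 0.0037 and 0.02). VEGFA, an angiogenic factor, fell (-0.97 and -1.12, adjusted p = 2e-05 and 6.4e-06). So did SNAI2, a factor of epithelial-mesenchymal transition (-0.51 and -0.55, adjusted p = 0.00071 and 0.00038). TNFRSF19 was lower under decitabine (-0.29, adjusted p = 0.037), but not with library size as the only scaling (-0.04, adjusted p = 0.77). The increase of AXIN2 by 2.94 and 2.85 was thus not shared by every target on the list.

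Genes most like each member across the 9 libraries were sought by Pearson's r of log2 CPM among 14321 genes (14322 for SFRP4 and WIF1), as a description, since all libraries share the split into controls and treated cells. DKK3 was most like CNN3 and EPHB6 (r of 0.999 each), SFRP1 most like MROH2A (0.999) and TRPA1 (0.998), and AXIN2 most like RAB3B and EFEMP1 (0.999 each). SFRP4 was most like SPANXD and SPANXB1 (0.998 each), WIF1 most like BUD23 (0.994) and SOD3 (0.993), and DKK1 most like C18orf32 (0.996) and HNMT (0.995). For these 6 members, between 1190 and 1702 genes had an r over 0.95. For WNT5A, only 23 genes passed 0.95, among them PLEKHF2 (0.978). SPANXD and SPANXB1 belong to a family of near-identical genes, between which reads can be split.

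Some of these counts may be shared with overlapping genes, since whether the counting used strand is not given in the sources used here. PRKG1-AS1, on the strand opposite to DKK1, shares 227 exon bases with it and had 53 to 72 counts in the controls, 232 to 249 under decitabine and 254 to 290 under decitabine plus SAM, against 11427 or more for DKK1 in every library. USP47 shares 5681 exon bases with DKK3 on the opposite strand and was not called in any comparison (-0.11, adjusted p = 0.17 under decitabine, -0.11, adjusted p = 0.16 under decitabine plus SAM, and adjusted p = 0.99 between the treatments). ENSG00000266076 shares 1316 exon bases with AXIN2 on the same strand and had 2 counts or fewer in each library. Of the nearest tested gene on each side of each member that did not overlap it, 20 in all, 6 were higher and 4 lower under decitabine, beside 36.3% and 32.5% of all genes tested. These neighbors lay 5844 to 1181383 bases away. Overlapping genes were left out, among them USP47, PRKG1-AS1 and EPDR1, which overlaps SFRP4. PRKG1-AS1 (1.76 and 2.0) and EPDR1 (0.56 and 0.74) were called higher with both treatments. Under decitabine plus SAM, 6 were higher and 6 lower, beside 35.9% and 31.3%. Between the treatments, 2 were higher and 2 lower, beside 7.67% and 8.02%. The neighbors that do not overlap a member are thus not apart from the background.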

How the data were processed

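RNA of PC-3 cells was sequenced on a BGISEQ-500 by the authors, who removed low-quality reads with TrimGalore 0.6.4, counted the rest with kallisto against GRCh38.p13 and deposited estimated counts per gene, not normalized. The kallisto index and the strand setting are not given in the sources used here. The deposited log2 CPM values were not used. GENCODE release 44 held 60357 of the 60617 gene identifiers and gave positions and canonical transcript lengths. Labels gave groups and days, and the paper's methods gave doses.

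Counts were rounded to whole numbers. Genes passing filterByExpr (0.447 CPM in 3 libraries), 18532 in all, were fitted with edgeR 4.0.16 in R 4.3.3 (TMM, robust quasi-likelihood, all 9 libraries, no replicate block), with Benjamini-Hochberg adjustment and a threshold of 0.05. TMM factors were 0.8948 to 0.9021 in the controls and 1.033 to 1.078 in treated libraries. Intervals of fold changes came from the fit. Ratios against a group without counts used 3 counts over that group and the treated counts as observed, so they have no upper limit and allow for no error in the treated counts. The 95% counting intervals cover counting error only. Total counts per library lay between 21934307 and 22489684. The members, the pathway lists and the tests were chosen with earlier results of these data known. Named were all members, the most and least changed called gene of each list and direction averaging 50 counts or more in 1 group or more, and the 2 genes most like each member, as far as they are reported. Results on some single genes are not reported here. The fit was tested on simulated data in which few genes changed, equally in both directions. That test could not show whether TMM scaling holds where most genes change. Alternatives were DESeq2 1.42.0 and its size factors, library size alone, voom and limma 3.58.1, no filter, a filter on a mean count of 10, fits of 6 libraries, a replicate block and leaving out each library. No pair of libraries within a group agreed within sampling noise (chi-square per degree of freedom 5.86 to 23.5). Summaries were made in Python 3.11.15 with numpy 2.4.6, pandas 2.3.3 and scipy 1.17.1, and figures with matplotlib 3.10.9.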

Additional observations from a re-analysis of the deposited data

How the results depend on the processing

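Over 17 alternatives, the number of members called stayed at 6 to 8 under decitabine, 6 to 7 under decitabine plus SAM and 1 between the treatments. Of 356 values for single members, 351 kept their direction or call status, and the other 5 all belonged to WNT5A, whose call under decitabine was lost with library size alone (-0.03), with only the 6 libraries compared (-0.25, adjusted p just above the threshold), without control replicate 3 (-0.24) and without decitabine replicate 3 (-0.17), and whose call under decitabine plus SAM was lost with library size alone (-0.09). The cause was not tested. The log2 difference of DKK3 between the treatments was -1.09 to -0.9, with an adjusted p of 0.0083 at most. The fitted change of WIF1 under decitabine lay between 4.8 (voom and limma) and 7.01, and DESeq2 gave it no adjusted p between the treatments. DKK2 was called under decitabine when no filter was used. Groups share replicate numbers, but not every pair of the same number deviated together (r of -0.0165 to 0.0694 with a control, and 0.233, 0.0359 and 0.229 between the treatments). Pairs of different numbers between the treatments had r of -0.22 to 0.0141, with -0.22 where replicate 1 of either treatment met replicate 3 of the other. With the replicate number as a block 7, 7 and 1 members were called, while between the treatments calls went from 1421 and 1487 to 1766 and 1890 over all genes and from 5 and 1 to 8 and 5 over the pathway lists. Between the treatments, calls over all genes were 1421 higher and 1487 lower in the main fit. They fell to 381 and 480 without replicate 2 of decitabine plus SAM, and to 591 and 773 without its replicate 1. Without decitabine replicate 2 they fell to 408 and 596, and without decitabine replicate 1 to 846 and 937. Calls rose to 2066 and 1997 without replicate 3 of decitabine plus SAM, and were 1465 and 1521 without decitabine replicate 3. Leaving out a control gave 1051 to 1406 higher and 1169 to 1441 lower. With library size alone, lower genes went from 6030 to 3746 under decitabine and from 5799 to 3857 under decitabine plus SAM. Depth limits DKK2, SFRP2 and SFRP5, with 8 counts or fewer per library.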
